A study of Mus musculus with 8 samples.

Results

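The let-7 guide arms are the 10 mature mouse miRNAs mmu-let-7a-5p, mmu-let-7b-5p, mmu-let-7c-5p, mmu-let-7d-5p, mmu-let-7e-5p, mmu-let-7f-5p, mmu-let-7g-5p, mmu-let-7i-5p, mmu-let-7k and mmu-miR-98-5p, written without the species prefix from here on. They were taken by name from the mouse probes of the array, which covered 1881 miRNAs. All 10 were present, with 2 probes each, and all 10 were among the 408 miRNAs tested. Male C57BL/6 mice, 8 weeks old, were the source of the kidney tissue, which was collected 7 days after unilateral ureteral obstruction (UUO), in which 1 ureter is closed, or after a sham operation. Each group had 4 samples and 1 array per sample, numbered Sham 1, 2, 3 and 8 and UUO 1, 2, 3 and 4 in the labels. The labels do not say in words that each sample came from a different mouse, so p-values measure the spread between these samples, which may be technical. On the slide the Sham arrays lay in row 1 and the UUO arrays in row 2, so slide row and group cannot be told apart. In bulk tissue, fewer cells of a type and less RNA per cell cannot be told apart either.

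The let-7 miRNAs are among the most conserved animal miRNAs and accumulate as cells differentiate. A mature miRNA guides the Argonaute protein to messenger RNAs that pair with its seed, the bases near its 5′ end, and lowers their output. Known let-7 targets include Lin28, which itself blocks the maturation of let-7 precursors, Hmga2 and Ras genes. Members with the same seed share most predicted targets, and they are made from separate hairpins at several places in the genome.

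The 10 mature sequences are shown in full because members differ only outside the seed, and those differences are what the probes must tell apart. They are RefSeq entries of build GRCm38.p6, written 5′ to 3′, with the seed (bases 2 to 8) in capitals.
let-7a-5p: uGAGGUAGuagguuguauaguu
let-7b-5p: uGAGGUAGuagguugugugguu
let-7c-5p: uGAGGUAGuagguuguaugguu
let-7d-5p: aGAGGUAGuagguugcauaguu
let-7e-5p: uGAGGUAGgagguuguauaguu
let-7f-5p: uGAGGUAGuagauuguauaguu
let-7g-5p: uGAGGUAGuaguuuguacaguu
let-7i-5p: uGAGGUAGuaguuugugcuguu
let-7k: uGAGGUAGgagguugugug
miR-98-5p: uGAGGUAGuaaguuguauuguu

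All 10 carried the seed GAGGUAG. It occurred in 11 of 1679 mature mouse entries (0.655%), and the entry outside the family, miR-1961, was not well above background on any of the 8 arrays. With positions counted from 1 at the 5′ end and let-7a-5p as the reference, let-7e-5p differed only by U9G. let-7c-5p differed by A19G, let-7f-5p by G12A, and let-7b-5p by A17G and A19G. let-7d-5p differed by U1A and U16C, let-7g-5p by G12U and U18C, and miR-98-5p by G11A and A19U. The sequence with the most substitutions was let-7i-5p, with G12U, A17G, U18C and A19U. Against let-7g-5p it differed by A17G and A19U. The shorter let-7k, of 19 bases, differed by U9G, A17G and A19G.

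The hairpins were spread over several chromosomes (GRCm38.p6). let-7i-5p was encoded at chr10:122985698-122985719 on the minus strand. It lay within no gene searched in the RefSeq table, where all genes with symbols starting with Mir were left out of the search. let-7e-5p lay at chr17:17830366-17830387 on the plus strand within the span of Spaca6, and let-7g-5p at chr9:106178846-106178867 on the plus strand within Wdr82. The table gives gene spans, so exon or intron was not resolved. Copies of let-7a-5p, let-7f-5p and let-7d-5p lay together on chromosome 13, with starts 350 and 1811 bases apart. let-7c-5p and let-7b-5p lay 709 bases apart on chromosome 15, within the long non-coding RNA Lncppara. A copy of let-7f-5p and miR-98-5p lay 876 bases apart on chromosome X within Huwe1.

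Each probe is complementary to its mature miRNA from the 3′ end into the seed or through it, and the probes used were 16 to 22 bases long. Aligned with the other members, the probe used for let-7i-5p had no fewer than 2 mismatches, the fewest being to let-7g-5p. The let-7g-5p probe had at least 2, to let-7a-5p, let-7f-5p and let-7i-5p. The let-7e-5p probe had 1 mismatch to let-7a-5p, and 1 was also the minimum for let-7a-5p, let-7b-5p, let-7c-5p, let-7d-5p, let-7f-5p and let-7k. Whether the array separates sequences 1 base apart was not tested.

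**Figure D1:**
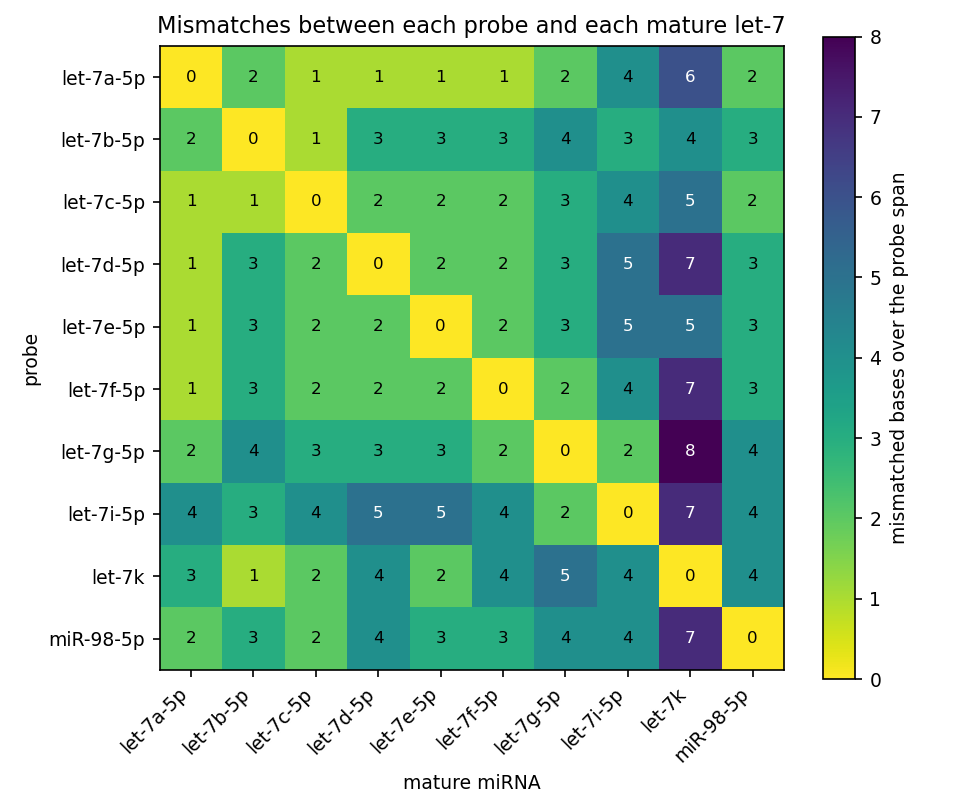
Number of mismatched bases between the probe used for each member (rows) and each mature member sequence (columns), counted over the bases the probe covers, with a base the shorter let-7k lacks counted as a mismatch. The let-7i-5p and let-7g-5p probes have no neighbour closer than 2 mismatches, whereas let-7e-5p and most others have a neighbour at 1.

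Signals are given as log2 of the processed spot intensity, scaled on every array to the 75th percentile of the same 623 probes, those detected throughout. They compare 1 probe across arrays and do not rank members by abundance. Within groups the arrays correlated at 0.991 to 0.999 over the tested miRNAs, and between groups at 0.948 to 0.964. The miRNAs typical of kidney tubules were present on all arrays, miR-192-5p among them.

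In UUO kidneys let-7i-5p rose 2.13-fold and let-7e-5p rose 1.28-fold relative to Sham, whereas let-7g-5p fell 1.40-fold. The other 7 members (let-7a-5p, let-7b-5p, let-7c-5p, let-7d-5p, let-7f-5p, let-7k and miR-98-5p) did not pass the test (limma, Benjamini-Hochberg adjusted p under 0.05 over the 408 miRNAs). Of the 10 members, 2 were thus called higher, where 39.7% of all tested miRNAs were, and 1 lower, where 27.7% were (67.4% in either direction). Counted by probe, 4 of the 19 tested probes of the members were called higher, against 41.1% of all tested probes, and 2 lower, against 27.2%. The groups did not overlap for 3 of 10 members, against 61.3% of all tested miRNAs. The median log2 change was −0.09 over the members and 0.06 over all 408. At the level of single arrays, the whole family took 8.98% ± 0.271 (SD, n = 4) of the summed signal in Sham and 9.55% ± 0.182 (SD, n = 4) in UUO. The Sham arrays ran from 8.74 to 9.35% and the UUO arrays from 9.39 to 9.8%. A share also depends on the signal of all other miRNAs: the family's own summed scaled signal (unlogged) was 130.0 to 140.0 in Sham and 122 to 137 in UUO, so those ranges overlapped.

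**Figure D2:**
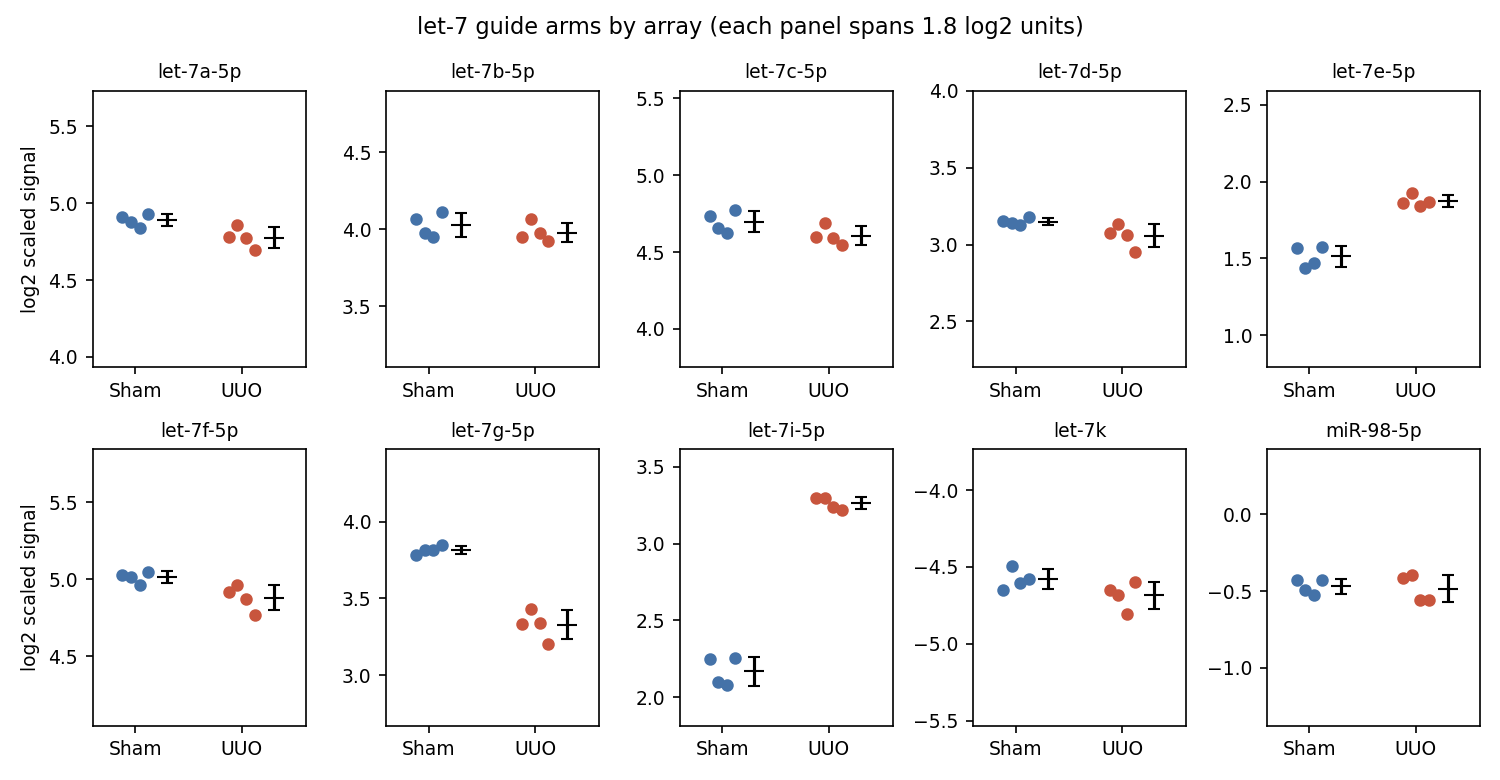
Log2 scaled signal of each member on the 4 Sham and 4 UUO arrays, 1 panel per member, each spanning 1.8 log2 units; points are arrays and bars the mean ± SD. let-7i-5p and let-7e-5p lie higher and let-7g-5p lower on every UUO array than on any Sham array, and the groups overlap in the other 7 panels.

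let-7i-5p had log2 signals of 2.25, 2.10, 2.08 and 2.25 on Sham 1, 2, 3 and 8. On UUO 1 to 4 it had 3.29, 3.30, 3.24 and 3.22. Every UUO array was higher than every Sham array, and the gap between the groups far exceeded the spread within either. The means were 2.17 ± 0.095 in Sham and 3.26 ± 0.039 in UUO (SD, n = 4 each). The log2 change was 1.09 ± 0.06 (SE), with an adjusted p of 1.04e-06 in limma. A rise at least as large was seen for 43 of the 408 miRNAs (10.5%), let-7i-5p included. Its other probe, which pairs with 1 base less at the 5′ end of the miRNA, rose 2.22-fold (adjusted p = 1.82e-06 in limma over all tested probes). Of the family's summed signal, the let-7i-5p probe held 3.21 to 3.46% in Sham and 7.18 to 7.62% in UUO arrays.

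let-7e-5p had 1.57, 1.44, 1.47 and 1.58 on the Sham arrays and 1.86, 1.93, 1.84 and 1.86 on the UUO arrays. The groups were again separate, by a narrower margin. The change was 0.36 ± 0.05 (SE) with an adjusted p of 0.000334 in limma. Its other probe changed by 0.36 as well (adjusted p = 0.000374). This rise was not called when the total signal per miRNA summed by the scanner software was used (log2 change 0.02) or with the deposited ratios (0.06).

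let-7g-5p had 3.79, 3.82, 3.82 and 3.85 on the Sham arrays and 3.34, 3.43, 3.34 and 3.21 on the UUO arrays. The Sham arrays lay within a narrow band, and all UUO arrays were below it. The means were 3.82 ± 0.024 and 3.33 ± 0.094 (SD, n = 4 each). The log2 change was −0.49 ± 0.06 (SE, adjusted p = 0.000101 in limma), and the other probe gave −0.49 (adjusted p = 7.13e-05). let-7g-5p and let-7i-5p thus moved in opposite directions although their sequences differ at 2 bases.

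let-7a-5p and let-7f-5p came closest to a call among the remaining members. let-7a-5p had 4.91, 4.88, 4.84 and 4.93 in Sham and 4.78, 4.86, 4.77 and 4.70 in UUO, a change of −0.11 ± 0.05 (SE, adjusted p = 0.0722 in limma). let-7f-5p had 5.03, 5.02, 4.96 and 5.05 in Sham and 4.92, 4.96, 4.87 and 4.77 in UUO, a change of −0.13 ± 0.05 (SE, adjusted p = 0.0541). In both, UUO 2 was the array that reached into the Sham range. Without UUO 2, let-7a-5p (−0.14, adjusted p = 0.0389 in limma) and let-7f-5p (−0.16, adjusted p = 0.0325) were called lower. This raised the members called lower from 1 to 3, where 30.4% of all miRNAs tested without UUO 2 were called lower.

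let-7b-5p, let-7c-5p and let-7d-5p changed by −0.05, −0.09 and −0.09, with adjusted p-values of 0.475, 0.171 and 0.13 in limma. Both probes of each gave the same sign, and UUO 2 was the highest UUO array for all of them. miR-98-5p, which shares the seed but carries another name, had −0.43, −0.49, −0.52 and −0.42 in Sham and −0.42, −0.40, −0.56 and −0.56 in UUO. The groups overlapped, the change was −0.02 ± 0.06 (SE, adjusted p = 0.82), and its other probe gave 0.04. let-7k was measured close to the lower limit of the scale, a log2 signal of −4.89. Its 16-base probe was detected on all 8 arrays with a change of −0.10 ± 0.06 (SE, adjusted p = 0.157), and its 15-base probe was detected on 0 arrays. Repeat spots of the let-7k probe varied by 13.62 to 22.55% within an array (coefficient of variation), against 0.58 to 7.81% for the probes of the other members.

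To set members against each other without a scaling factor, each signal was expressed relative to the mean log2 signal of the 6 bright members on the same array. These were let-7a-5p, let-7b-5p, let-7c-5p, let-7d-5p, let-7f-5p and let-7g-5p, the members with a mean log2 signal above 0 other than let-7i-5p and let-7e-5p themselves, and a bright member was left out of its own reference. let-7i-5p and let-7e-5p were singled out for this contrast with earlier results of these arrays known, so its tests are not independent evidence of the difference.

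On this relative scale let-7i-5p stood at −2.03, −2.15, −2.14 and −2.06 in Sham and at −0.82, −0.90, −0.87 and −0.80 in UUO. The distance to its bright relatives shrank on every UUO array, a relative rise of 1.25 ± 0.04 (SE) or 2.38-fold (adjusted p = 1.51e-07 in limma). let-7e-5p stood at −2.71, −2.81, −2.75 and −2.74 in Sham and −2.25, −2.26, −2.26 and −2.15 in UUO. It rose 1.43-fold relative to the bright members (0.52 ± 0.04 SE, adjusted p = 1.25e-05). let-7g-5p fell by 0.39 ± 0.04 (SE, adjusted p = 4.19e-05) relative to the other 5, a fall that quantile normalization between arrays removed (0.02). Relative to the same reference, 53.9% of all 408 miRNAs were higher and 21.8% lower.

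Smaller relative rises were called for let-7b-5p (0.14, adjusted p = 0.0121), let-7d-5p (0.08, adjusted p = 0.0427) and miR-98-5p (0.14, adjusted p = 0.00985), and for let-7c-5p just under the threshold (0.09, adjusted p = 0.05 after rounding; limma). These calls depended on the choice of reference. With let-7g-5p left out of the reference, a choice made after the data were seen, the values were 0.059, 0.004, 0.08 and 0.007, and none was called. With let-7a-5p alone as the reference, the call of miR-98-5p was kept (0.097, adjusted p = 0.0484) and those of let-7b-5p, let-7d-5p and let-7c-5p were lost (adjusted p from 0.134 to 0.582). The let-7c-5p call was lost whichever array was left out (adjusted p from 0.0573 to 0.113 in limma). let-7d-5p kept its call only without Sham 3 (adjusted p = 0.0475, against 0.0504 to 0.103 without any other array). let-7b-5p (adjusted p from 0.0148 to 0.0337) and miR-98-5p (0.00645 to 0.0291) kept theirs whichever array was left out. Without let-7g-5p in the reference, let-7i-5p kept a relative rise of 1.19 and let-7e-5p of 0.46.

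Pairs of members were then compared by the difference of their signals on each array. For let-7i-5p against the other 9 members, the difference was higher in UUO by 0.73 (against let-7e-5p) to 1.58 (against let-7g-5p). For let-7e-5p against the 8 members other than let-7i-5p, it was higher by 0.38 (against miR-98-5p) to 0.85 (against let-7g-5p). The groups did not overlap in any of the 17 pairs. Taken singly, 61.3% of all tested miRNAs had groups that did not overlap, and the share over pairs of other miRNAs was not computed. Each gave p = 0.0286 in the exact permutation test (2-sided), the smallest that 4 against 4 arrays allow, and 0.0286 after Benjamini-Hochberg adjustment over the 17 pairs. A pair without overlap can give no other p-value. Every pair holds let-7i-5p or let-7e-5p, so the 17 are not independent.

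**Figure D3:**
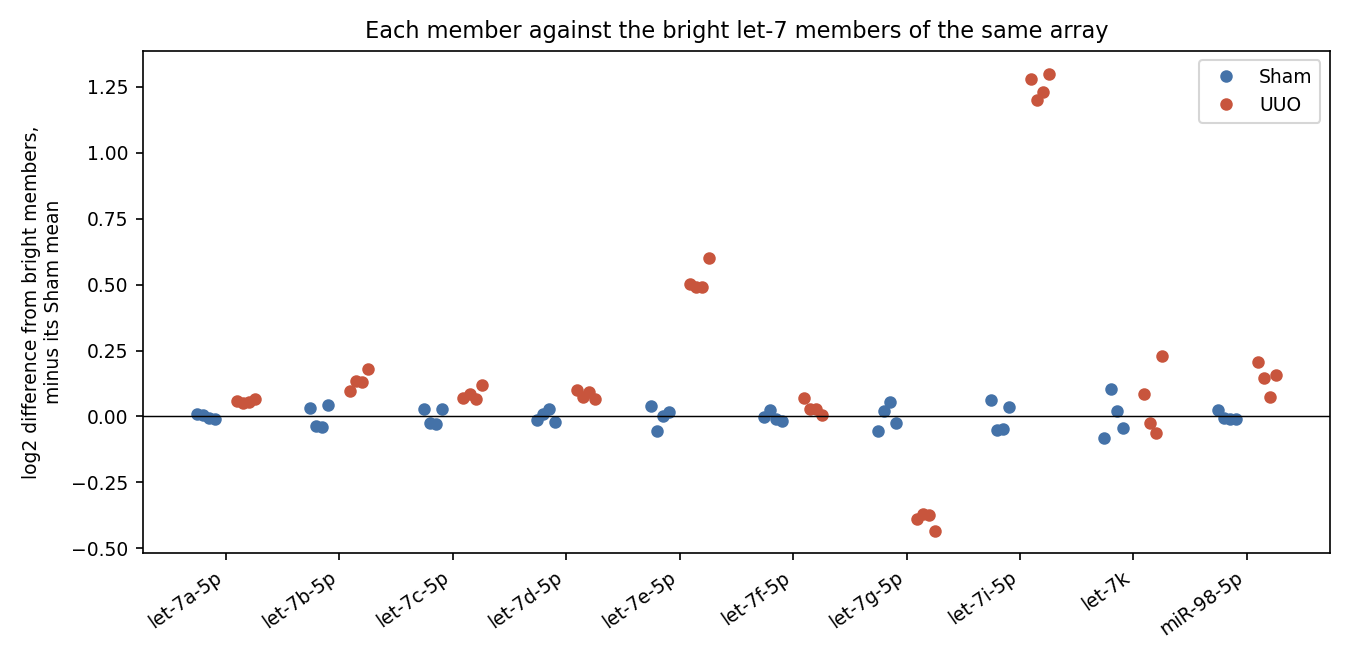
Log2 difference of each member from the mean of the bright members on the same array, with the member's Sham mean set to 0, for the 4 Sham and 4 UUO arrays (points). let-7i-5p (mean change 1.25) and let-7e-5p (0.52) lie above and let-7g-5p (−0.39) below their Sham values, while the remaining members stay within 0.15 of them on average.

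Changes relative to Sham were compared under 8 ways of scaling or summarising the arrays, which moved the median change of all tested miRNAs between −0.23 and 0.34. let-7i-5p was called higher in 8 of 8, with log2 changes of 0.78 to 1.38, and let-7g-5p lower in 8 of 8, with −0.83 to −0.20. let-7e-5p was called higher in 6 of 8 (0.02 to 0.65). The direction of each of the other 7 members depended on the scaling. let-7a-5p ran from −0.48 to 0.17, let-7b-5p from −0.38 to 0.24, let-7c-5p from −0.43 to 0.20, let-7d-5p from −0.42 to 0.19 and let-7f-5p from −0.78 to 0.15. let-7k ran from −0.44 to 0.18 and miR-98-5p from −0.33 to 0.27.

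The members called under each scaling were set beside the share of all miRNAs called. With scaling to the dmr control features, 9 members were called higher, where 58.8% of all tested miRNAs were, and 1 lower, where 15.7% were. With the total signal per miRNA, 1 member was higher (21.8% of all) and 8 were lower (43.5%), and with the deposited ratios 1 (23.6%) and 8 (41.5%). With no scaling 3 members were higher (52% of all) and 1 lower (18.9%). With the percentile over all mouse probes there were 2 (47.5%) and 1 (20.6%), with normexp background correction 2 (28.3%) and 2 (32.7%), and with quantile normalization 3 (30.1%) and 5 (39.2%).

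Measured from the median of all tested miRNAs under each scaling, let-7i-5p stood 1.01 to 1.22 above it and let-7e-5p 0.25 to 0.37 above it in 8 of 8. let-7b-5p and let-7d-5p were above that median in 1 of 8, under quantile normalization. The other 6 members were below it in all 8. A factor per array moves all miRNAs alike, so it largely cancels in this measure. The main scaling, the percentile over all mouse probes, no scaling and the dmr features differ only by such a factor. The total signal and the deposited ratios likewise differ from each other only by a factor per array. Agreement within these sets was therefore largely fixed in advance, and the 8 scalings are not independent checks.

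**Figure D4:**
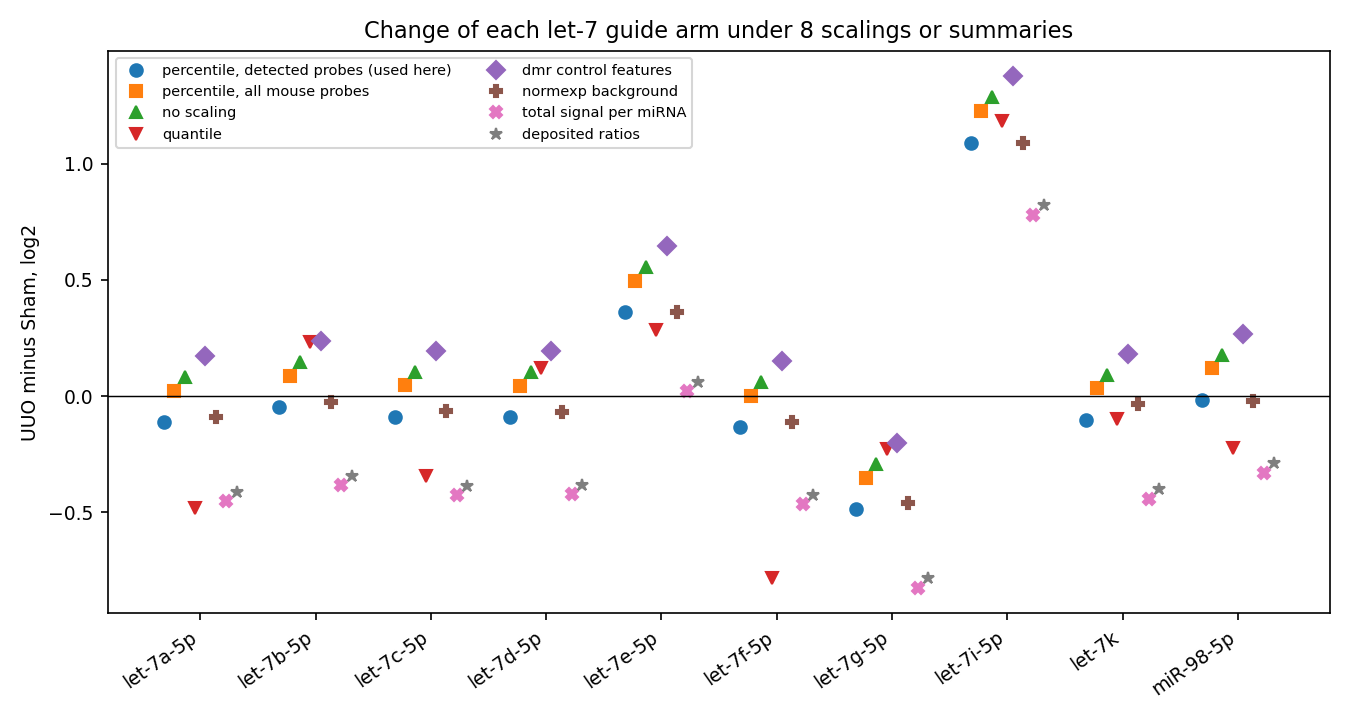
Log2 change from Sham to UUO of each member under 8 ways of scaling or summarising the arrays (1 marker each). let-7i-5p stays between 0.78 and 1.38 and let-7g-5p between −0.83 and −0.20, let-7e-5p reaches down to 0.02, and the other 7 members fall on both sides of 0.

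Several members lie close to miRNAs of other families in the genome. Of 11 such neighbours 7 were tested, and 6 were called higher and 1 lower, with a median log2 change of 0.41. Over all tested miRNAs 39.7% were higher and 27.7% lower, with a median of 0.06. In the let-7e cluster, miR-99b-5p starts 172 bases and miR-125a-5p 451 bases from let-7e-5p. miR-99b-5p rose by 0.68 ± 0.04 (SE, adjusted p = 1.81e-06 in limma) and miR-125a-5p by 0.34 ± 0.06 (SE, adjusted p = 0.00105). The other arms of these hairpins, miR-99b-3p and miR-125a-3p, rose by 0.41 ± 0.14 (SE, adjusted p = 0.0267 in limma, groups overlapping) and 1.78 ± 0.18 (adjusted p = 5.37e-05). miR-99b-3p was detected on 3 Sham and 4 UUO arrays. Its Sham mean of −4.71 was near the lower limit of the scale, which may affect the size of its change. The changes of miR-99b-5p and miR-125a-3p were called under 8 of 8 scalings, that of miR-125a-5p under 6 and that of miR-99b-3p under 5.

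Neighbours of let-7c-5p on chromosome 16 moved apart. miR-99a-5p, 732 bases from let-7c-5p, fell by 0.26 ± 0.07 (SE, adjusted p = 0.00711 in limma), a fall called under 5 of 8 scalings, with a range of −0.56 to 0.02. miR-125b-5p, which is also made from another locus, rose by 0.58 ± 0.08 (SE, adjusted p = 0.000299), under 8 of 8. miR-100-5p, which lies in a further let-7 cluster, rose by 0.22 ± 0.07 (SE, adjusted p = 0.0189), called under 5 of 8.

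The opposite arms of the let-7 hairpins, which are usually degraded, were near or below background. Of 12 listed, 11 were on the array, and 9 of these were detected on no array, let-7i-3p included. Of the 11, 2 passed the detection filter, and of all 1881 miRNAs on the array 408 did. Low detection therefore does not set these arms apart from the array as a whole. let-7a-1-3p fell by 0.35 ± 0.09 (SE, adjusted p = 0.00972 in limma), called lower under 5 of 8 scalings; its probe is also listed for let-7c-2-3p. let-7e-3p was detected on 0 Sham and 4 UUO arrays. Its signal lay at or near the floor of the scale on all arrays, so no fold is given, and the difference was not called (adjusted p = 0.316 in limma). It was called higher under 4 of 8 scalings. In the main scaling it lay at the floor on every Sham array and passed the filter through the UUO arrays alone. It could therefore not have been called lower there.

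Among the 398 tested miRNAs outside the family, the nearest profiles were found by the root mean square difference over the 8 arrays, after each log2 signal was centred on its Sham mean. Nearest to let-7i-5p were miR-183-5p (0.046 log2 units), miR-350-3p (0.079) and miR-224-5p (0.08), which rose by 1.08, 1.00 and 1.08. Nearest to let-7e-5p were its cluster neighbour miR-125a-5p (0.023), miR-28a-5p (0.045) and miR-7069-5p (0.047). Nearest to let-7g-5p were miR-26b-5p (0.034), miR-652-5p (0.041) and miR-3962 (0.05). The measure compares changes on these arrays and says nothing of shared function.

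miRNAs typical of other cell types moved with the groups in which the let-7 arms were compared. All 8 leukocyte markers were higher in UUO, with a summed scaled signal (unlogged) of 2.4 to 2.85 in Sham and 8.88 to 9.97 in UUO arrays. All 5 fibroblast markers were higher, with sums of 3.73 to 4.19 against 13.2 to 15.8. The fibroblast marker miR-214-5p and the macrophage marker miR-511-3p, which is in the leukocyte list, were each detected on 0 Sham and 4 UUO arrays. Both lay at the floor on every Sham array and passed the filter through the UUO arrays alone, so neither could have been called lower. Of 6 kidney tubule markers 5 were lower, with sums of 43.4 to 45 against 19.7 to 24.3. Of 3 tested smooth muscle markers 2 were higher (2.28 to 2.68 against 2.66 to 3.03). Of these 2, miR-143-5p lay at the floor on every Sham array, so it could not have been called lower either. Of 2 endothelial markers 1 was lower (sums of at least 12.5 in Sham and at most 12.4 in UUO), as were 2 of 3 tested red blood cell markers (3.72 to 5.48 against 2.12 to 3.86). Over all tested miRNAs 39.7% were called higher and 27.7% lower. Lists of 2 or 3 markers are too short to be told apart from these shares. The part of these cell types in the changes of let-7i-5p, let-7e-5p and let-7g-5p was not tested.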

How the data were processed

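The authors read the arrays with Agilent Feature Extraction 10.7.3.1, per the file headers, and deposited its intensity for every spot (background subtracted, not normalized between arrays, probe positions on mm9). The deposited series table holds ratios: the software's total intensity of a miRNA, multiplied by a factor for the array whose basis is not stated, over that miRNA's median.

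Control and outlier spots (2.64 to 2.95% per array) were left out and spots of a probe averaged. A probe was detected where over 50% of its spots were well above background (720 to 800 of 4415 probes per array); no spot was saturated. Arrays were scaled as described, raised to a floor (log2 −4.89) and logged. Each miRNA was represented by its brightest probe on average, and the 408 miRNAs detected on at least 4 of 8 arrays were tested with limma 3.58.1 in R 4.3.3, group as the only term, Benjamini-Hochberg adjusted, threshold 0.05. The number of arrays limits the precision. The fit was tested on simulated data.

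Named were all members, called neighbours and opposite arms, and the 3 nearest profiles outside the family. The lists (let-7 opposite arms, cluster neighbours, kidney tubule, leukocyte, fibroblast, smooth muscle, endothelial and red blood cell markers) and members were chosen with earlier results of these data known. Alternatives covered scaling (75th percentile over all mouse probes, none, quantile, dmr control features), background (normexp), summary per miRNA, floor, filter, outlier spots, blocks, the reference members and each array left out. Replicate numbers 1, 2 and 3 occur in both groups. Deviations of same-numbered arrays correlated at −0.001, 0.124 and −0.303. These 3 values are too few to decide whether the numbers pair samples. The main fit did not pair them, and a fit with the number as a block is given below.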

Additional observations from a re-analysis of the deposited data

Results flagged for a closer look

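Of the 40 sets of 4 arrays examined (10 members, each group, signal and signal relative to the bright members), 2 held an array far from the other 3; chance gives about 1 in 20. Relative to the bright members, let-7e-5p on UUO 4 was at −2.15, with the other UUO arrays between −2.263 and −2.252; all 4 were above the Sham arrays. miR-98-5p on Sham 1 was at −4.71, with the other Sham arrays between −4.742 and −4.74.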

How the results depend on the processing

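Of 471 alternative values, 370 kept direction and call or, for counts of calls, moved by no more than 1.5 times. Of the others, 33 lost a call, 23 gained one, 36 changed sign and 9 counts of calls moved by over 1.5 times. The cause of these changes was not tested. Some alternatives, such as the other detection filters and the slide position block, cannot change an estimate, so the 370 are not independent checks. The relative rises of let-7i-5p and let-7e-5p kept direction and call in all alternatives run, with 1.24 to 1.27 and 0.49 to 0.53 when 1 array was left out. Members called higher, 2 in the report, numbered 9 with scaling to the dmr control features and 1 with the total signal or the deposited ratios; with each array left out there were 2. Members called lower, 1 in the report, numbered 5 after quantile normalization, 2 with normexp, 3 with a doubled floor and 8 with the total signal or the deposited ratios. With 1 array left out there were 1 to 3. Of all tested miRNAs, 24% were called lower with the doubled floor. With 1 array left out, 36.1 to 42.9% of all were called higher and 24.8 to 30.4% lower. Under the doubled floor let-7k was raised to the floor, so its change there (0.0) is not counted among these values. Except let-7g-5p and let-7c-5p relative to the bright members, the values that changed sign were not called in the report. With the percentile over all mouse probes, let-7a-5p, let-7b-5p, let-7c-5p, let-7d-5p, let-7f-5p, let-7k and miR-98-5p were at 0.023, 0.088, 0.046, 0.044, 0.002, 0.033 and 0.12. With no scaling they were at 0.081, 0.15, 0.11, 0.10, 0.061, 0.092 and 0.18, and with the dmr features at 0.17, 0.24, 0.20, 0.19, 0.15, 0.18 and 0.27. After quantile normalization let-7b-5p was at 0.24 and let-7d-5p at 0.12. miR-98-5p was at 0.012 with the mean of its probes and from −0.044 to 0.01 with 1 array left out (0.009 without UUO 3 and 0.01 without UUO 4). Relative to the bright members, quantile normalization gave let-7a-5p −0.28, let-7c-5p −0.12, let-7f-5p −0.64 and let-7g-5p 0.023. A reference without let-7g-5p gave let-7a-5p −0.022, let-7f-5p −0.048 and let-7k −0.008, and let-7a-5p as the reference gave let-7f-5p −0.021.

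With the replicate number as a block, over numbers 1 to 3, let-7i-5p rose by 1.13 (adjusted p = 0.00112 in limma), let-7e-5p by 0.38 (0.0142) and let-7g-5p fell by 0.44 (0.00691). With this block 2 members were called higher, where 34.8% of all tested miRNAs were, and 1 lower, where 20.6% were. miR-98-5p was at 0.024, and relative to the bright members let-7k at −0.015; the relative rises of let-7b-5p, let-7c-5p, let-7d-5p and miR-98-5p lost their call. Position along the slide as a block cannot change an estimate, because each position held 1 Sham and 1 UUO array. It can change only the error. With this block let-7i-5p (1.09, adjusted p = 0.000106 in limma) and let-7e-5p (0.36, 0.00434) kept their calls. The relative calls of let-7c-5p (adjusted p = 0.101) and let-7d-5p (0.106) were lost.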
